A study of Mus musculus with 6 samples.

Results

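The genes of the T cell receptor complex and of the first signaling steps behind it were followed in starry-sky tumor-associated macrophages (SS-TAMs) and in germinal center macrophages (GCMs). The set was drawn up by name and holds 9 genes: Cd3d, Cd3e, Cd3g, Cd247, Cd2, Lck, Zap70, Lat and Skap1. A gene counted as measured where a probe set of the array names it and no other gene. This was so for 8 of the 9, each with 1 probe set, out of 19938 genes in all, and Lck was not analysed here. SS-TAMs were cut by laser from frozen sections of subcutaneous BL2 xenografts, grown to 1.44 cm2 in female BALB/c SCID mice and stained for CD68. BL2 is a human Burkitt's lymphoma cell line, and SCID mice lack mature T and B cells but keep natural killer (NK) cells. GCMs were cut from germinal centers of female BALB/c mice that carry a CSF1R EGFP transgene, a green reporter driven by the promoter of the macrophage receptor gene Csf1r, after immunization with sheep red blood cells in 2 doses. Of the labels of these mice, that of the tissue names the spleen and that of the source lymph nodes. All mice were 6 to 12 weeks old, and 1000 captured cells of each of 3 mice per group gave 1 Affymetrix Mouse Gene 1.0 array. The groups therefore differ in host genotype (SCID or CSF1R EGFP transgene), in tumor or immunization, in tissue and in how cells were found. These differences cannot be told apart.

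The T cell receptor is a pair of antigen-binding chains that cannot signal by themselves. They are held together with the CD3 gamma, delta and epsilon chains and the zeta chain, whose tails are phosphorylated by the kinase LCK when the receptor is engaged. The kinase ZAP70 docks on these tails and phosphorylates the adaptor LAT, on which the downstream enzymes assemble, while CD2 is an adhesion receptor that lowers the threshold for activation and SKAP1 links the signal to integrins. In a germinal center most of these genes are characteristic of T cells, and macrophages use related proteins behind their own receptors.

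Cd3g, Cd3d and Cd3e are neighbors in the RefSeq annotation of the mouse genome (GRCm38.p6). The 250 bases before the start of each are shown because all of these genes were much lower in SS-TAMs, beside those of Lat, which was also lower, and of Cd247, which did not pass the test. Sequences are from RefSeq, GRCm38.p6, 5′ to 3′ on the strand of the gene, and capitals mark matches on either strand to the E-box CAGGTG, to the TCF/LEF motif CTTTGA or to the ETS motif AGGAAG.
Cd3g (chr9:44980432-44980681, minus strand): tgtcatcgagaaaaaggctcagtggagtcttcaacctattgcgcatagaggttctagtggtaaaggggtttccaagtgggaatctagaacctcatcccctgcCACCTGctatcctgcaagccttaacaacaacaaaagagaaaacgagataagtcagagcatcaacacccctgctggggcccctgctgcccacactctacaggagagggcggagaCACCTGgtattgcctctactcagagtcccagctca
Cd3d (chr9:44981536-44981785, plus strand): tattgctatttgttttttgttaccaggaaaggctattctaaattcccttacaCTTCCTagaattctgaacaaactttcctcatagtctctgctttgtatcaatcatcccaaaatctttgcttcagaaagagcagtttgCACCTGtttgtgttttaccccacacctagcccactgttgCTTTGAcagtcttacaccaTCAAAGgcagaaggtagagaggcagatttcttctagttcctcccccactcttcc
Cd3e (chr9:45009612-45009861, minus strand): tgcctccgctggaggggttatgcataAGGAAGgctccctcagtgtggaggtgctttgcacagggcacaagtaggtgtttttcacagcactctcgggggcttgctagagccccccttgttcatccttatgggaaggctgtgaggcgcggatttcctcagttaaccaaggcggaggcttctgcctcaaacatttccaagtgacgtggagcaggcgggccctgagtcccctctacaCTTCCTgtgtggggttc
Lat (chr7:126369569-126369818, minus strand): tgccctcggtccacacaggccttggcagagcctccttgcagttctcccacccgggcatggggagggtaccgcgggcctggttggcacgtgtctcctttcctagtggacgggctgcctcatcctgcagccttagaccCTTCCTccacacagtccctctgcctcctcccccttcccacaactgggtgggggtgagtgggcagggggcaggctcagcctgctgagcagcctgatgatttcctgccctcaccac
Cd247 (chr1:165788431-165788680, plus strand): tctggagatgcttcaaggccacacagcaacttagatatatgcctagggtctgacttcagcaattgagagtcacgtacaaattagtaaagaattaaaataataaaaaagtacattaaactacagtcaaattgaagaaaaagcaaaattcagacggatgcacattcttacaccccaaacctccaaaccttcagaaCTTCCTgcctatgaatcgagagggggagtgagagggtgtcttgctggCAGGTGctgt
A promoter window was at hand for 7 of the 9 genes (10 windows, as Lck and Zap70 have several starts), and not for Cd2 or Skap1. The E-box stood in 6 of the 10 windows and in 17.2% of all 32851 windows of this length, with windows of the same gene counted separately. The 5 genes with it were Cd3g (2 times), Cd3d, Cd247, Zap70 and Lck. Cd3e and Lat, which were also lower, had none, while Cd247 and Zap70 did not pass the test and Lck was not analysed. The ETS motif stood in 8 of the 10 (every gene but Cd3g) and in 29.5% of all windows. The TCF/LEF motif stood in 2 of the 10, before Cd3d and Zap70, and in 13.8% of all windows. Of 3 other motifs searched on both strands, the RUNX motif TGTGGT stood in 2 of the 10 windows (14.0% of all), the motif AGATAA of GATA factors in 1 (9.99% of all) and the motif TATAAA of the TATA box in 0 (12.4% of all). A match of letters is no evidence of a bound factor.

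Intensities are the deposited values on a linear scale. The median intensity of the arrays was 6.1 to 6.5, and a value close to it may be background, since no detection calls were used. Values of different genes come from different probes and were not set against each other. Log2 intensities of the groups were compared with limma over all 19938 genes. The word called is used for an adjusted p (Benjamini-Hochberg) below 0.05. By this rule 6 of the 8 measured genes were lower in SS-TAMs and none was higher, beside 4.74% of all genes lower and 5.16% higher. At least 2-fold, 5 were lower and none higher, beside 2.36% and 1.4% of all genes. Their median log2 fold change, SS-TAM minus GCM, was -2.94, against 0.041 over all genes. The 2 genes not called were Cd247 and Zap70.

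**Figure D1:**
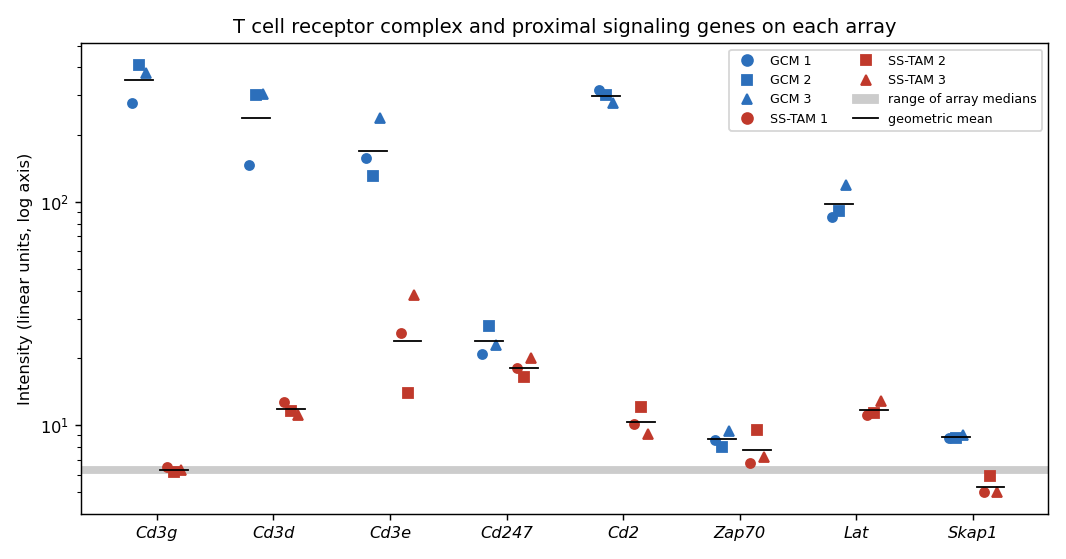
Intensity in linear units (log axis) of the 8 measured genes on each array, with GCM in blue and SS-TAM in red; the marker shape is the replicate, each bar marks a group's geometric mean and the grey band is the range of the array medians. Cd3g in SS-TAMs (6.2 to 6.5) lies close to the array medians, Cd3e is spread widely among SS-TAMs (13.9 to 38.1), and Zap70 is the gene whose groups overlap.

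The CD3 chains, which carry the receptor to the surface and hold its signaling tails, had the largest differences of the complex. Cd3g, the gamma chain, was at 6.5, 6.2 and 6.3 on SS-TAM arrays 1, 2 and 3 and at 276.2, 411.1 and 376.5 on GCM arrays 1, 2 and 3. The SS-TAM values lay close to the medians of their arrays (6.3, 6.4 and 6.5), 1 above and 2 below, and the lowest GCM array was 42.5 times the highest SS-TAM array. The log2 fold change was -5.79 (standard error 0.15, adjusted p = 0.00019 from limma), the largest decrease of all genes tested. As the SS-TAM level may be background, the true difference may exceed the measured 55.2-fold.

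Cd3d, the delta chain, was at 12.7, 11.6 and 11.1 in SS-TAMs and at 145.7, 300.4 and 305.0 in GCMs. GCM replicate 1 had less than the other GCM arrays, and the groups did not overlap. Its log2 fold change was -4.33 (standard error 0.30, adjusted p = 0.0015 from limma), or 20.1-fold.

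Cd3e, the epsilon chain, which pairs with each of the other CD3 chains, was at 25.8, 13.9 and 38.1 in SS-TAMs and at 156.6, 130.1 and 237.2 in GCMs. SS-TAM replicate 3 had 2.74 times the value of replicate 2, so this chain varied more among SS-TAMs than any other gene of the set, and all its SS-TAM values were above the array median. The groups did not overlap, and the log2 fold change was -2.82 (standard error 0.41, adjusted p = 0.013 from limma), or 7.07-fold. This call was lost without GCM replicate 1, 2 or 3 (adjusted p = 0.054, 0.051 and 0.058 from limma). The log2 fold change was then -2.88, -3.01 and -2.58.

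The product of the zeta chain gene Cd247 carries most of the phosphorylation sites of the complex and is used by NK cells as well. The gene had a smaller measured difference than the CD3 chains. It was at 18.0, 16.5 and 19.9 in SS-TAMs and at 20.9, 27.9 and 22.9 in GCMs. The groups did not overlap, but the nearest arrays, SS-TAM replicate 3 and GCM replicate 1, differed by a factor of only 1.05. The log2 fold change of -0.39 had a 95% interval of -0.71 to -0.08 before adjustment, and the gene was not called (adjusted p = 0.13 from limma). The interval does not overlap those of Cd3e (-3.83 to -1.82), Cd3d (-5.06 to -3.60) or Cd3g (-6.16 to -5.42). The difference between genes was not itself tested. Cd247 averaged only 3.90 times the array median in GCMs. A decrease as large as the 7.07-fold of Cd3e would end below that median and could not have been measured in full.

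**Figure D2:**
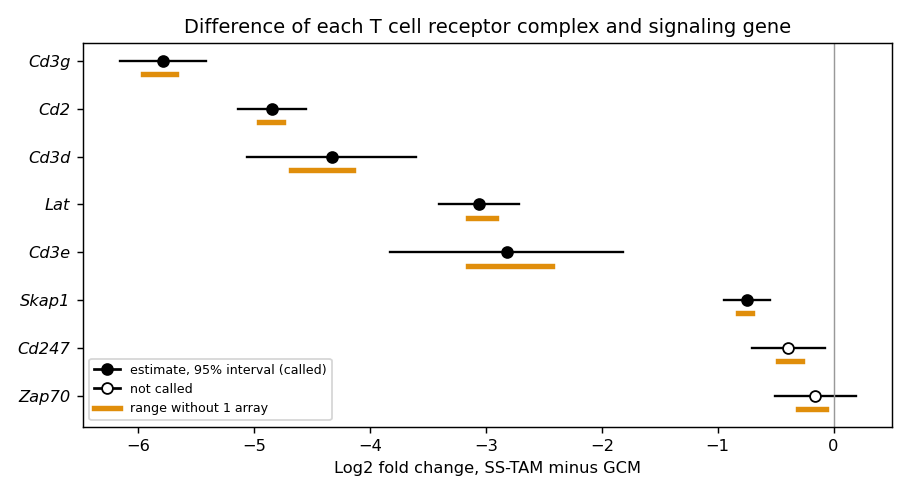
Difference in log2 intensity (SS-TAM minus GCM) for the 8 measured genes with its 95% interval (black line, filled point where called), and below each the range of the estimate when 1 array is left out (orange). The intervals of Cd3g, Cd2, Cd3d, Lat and Cd3e all end below -1.8, those of Skap1 and Cd247 lie between -0.94 and -0.08, and that of Zap70 spans 0.

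Cd2, an adhesion receptor gene not confined to T cells, was at 10.1, 12.1 and 9.1 in SS-TAMs and at 318.1, 300.2 and 277.9 in GCMs. The GCM arrays were close to each other, and it was the only gene of the set that was highest on GCM replicate 1. SS-TAM minus GCM was -4.85 on the log2 scale (standard error 0.12, adjusted p = 0.00019 from limma), or 28.8-fold, the second largest decrease of all genes.

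Among the kinases and adaptors behind the receptor, Lat was much lower and Zap70 was not called. Lat, the membrane scaffold, was at 11.1, 11.3 and 12.8 in SS-TAMs and at 85.4, 90.7 and 119.2 in GCMs. No SS-TAM array came within a factor of 6.67 of a GCM array, and the log2 fold change was -3.06 (standard error 0.14, adjusted p = 0.00069 from limma).

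Zap70, the kinase that binds the phosphorylated receptor tails, was at 6.8, 9.5 and 7.2 in SS-TAMs and at 8.6, 8.0 and 9.4 in GCMs. The groups overlapped, SS-TAM replicate 2 was the highest of all 6 arrays, and both groups lay close to the array median (1.22 and 1.41 times it on average). The log2 fold change was -0.16, with a 95% interval of -0.51 to 0.19 (adjusted p = 0.51 from limma). At this signal a decrease of the size seen for Lat could not have been measured, and the value does not show that the kinase gene was the same in both groups.

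Skap1, the adaptor that couples the receptor to integrins, was at 5.0, 5.9 and 5.0 in SS-TAMs and at 8.8, 8.8 and 9.0 in GCMs. The GCM arrays differed by 0.2 at most and the groups did not overlap. SS-TAM minus GCM gave -0.75 on the log2 scale (standard error 0.08, adjusted p = 0.0056 from limma). The SS-TAM values were below the array median on all 3 arrays, so they may be background and the true difference may exceed the measured 1.68-fold. The GCM values were low as well, at 1.45 times the array median on average. With 16 added before log2 the log2 fold change was -0.22, and the gene was still called.

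In 7 of the 8 genes every SS-TAM array lay below every GCM array, beside 11.5% of all genes, and none lay wholly above, beside 18.5%. The summed intensity of the 8 genes was 96.0, 87.0 and 109.5 in SS-TAMs and 1020.3, 1277.2 and 1357.1 in GCMs. GCM replicate 1 was lowest, or tied for lowest, in 5 of the 8 genes, and GCM replicate 3 was highest in 5. Of all genes with 1 highest GCM array, 38.6% were highest on replicate 3 and 36.7% on replicate 1. The B cell list had the other order, with sums of 605.6, 222.2 and 221.6 on GCM arrays 1, 2 and 3. All of its 14 measured genes were highest on GCM replicate 1. In SS-TAMs no array stood apart, and each was highest in 2 or 3 of the 8 genes. In these samples of captured tissue, fewer cells of a type and less RNA per cell cannot be told apart.

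Of 59 measured genes in lists of receptor chains, coreceptors, kinases, adaptors and CD2 partners, 23 were lower and none higher, with a median log2 fold change of -0.35. Of the 23, 9 were called again without any 1 array. Of the receptor chain genes only Ptcra, the surrogate chain of immature thymocytes, was measured (8.70 ± 0.85 against 7.87 ± 0.06, SD, n = 3; adjusted p = 0.33 from limma). The chains of mature receptors were not analysed here.

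Of 17 coreceptors and costimulatory receptors, 7 were lower and none higher. Both chains of the coreceptor of cytotoxic T cells were among them: Cd8b1 averaged 10.8 ± 1.96 and 51.4 ± 8.78 (SS-TAMs and GCMs), and Cd8a 10.1 ± 0.61 and 32.9 ± 13.7 (SD, n = 3). The costimulatory receptor gene Cd28 had a log2 fold change of -2.11, and Cd96, Icos, Cd27 and Btla were also lower (-1.42, -0.82, -0.77 and -0.38). Cd8b1, Cd96 and Cd27 kept their calls without any 1 array, whereas Cd8a, Icos and Btla kept theirs in only 2 of 6 such fits. Cd4, the coreceptor of helper T cells, was at 34.3, 28.6 and 27.3 in SS-TAMs and at 35.5, 25.8 and 39.6 in GCMs. The groups overlapped, and it was not called (log2 fold change -0.15, adjusted p = 0.63 from limma), and neither was Lag3, which binds the same ligands as CD4 (-0.10).

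Of 16 kinases, phosphatases and their regulators, 6 were lower and none higher. Prkcq, the protein kinase C of the T cell contact zone, was at 8.87 ± 2.31 against 27.9 ± 2.36, and Ptprc, the gene of the phosphatase CD45 carried by all white blood cells, at 95.8 ± 33.2 against 240 ± 18.6 (SD, n = 3). The diacylglycerol kinase gene Dgka, the phosphatase gene Ptpn22, the ubiquitin ligase gene Cblb and the kinase gene Txk had log2 fold changes of -1.37, -1.13, -0.94 and -0.74. Fyn, a kinase of the same family as LCK, was at -0.15 and the phosphatase gene Ptpn6 at -0.16, and neither was called. Ptprc was called in 1 of 6 fits without 1 array.

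Of 21 adaptors and effectors, 9 were lower and none higher. They were Arhgap15, Nfatc3, Themis, Malt1, Bcl10, Fyb, Grap2, Rasgrp1 and Nck1, with log2 fold changes from -1.63 (Arhgap15) to -0.45 (Nck1). Themis, which is needed for T cell maturation, was at 9.33 ± 0.64 against 24.7 ± 8.40 (SD, n = 3). Lcp2, the adaptor SLP-76 that LAT recruits and that macrophages also use, was not called (-0.60, adjusted p = 0.11 from limma), nor was the phospholipase gene Plcg1 (-0.18). Rasgrp1 and Malt1 kept their calls without any 1 array, Arhgap15 in 5 of 6 such fits, and the other 6 in 0 or 1.

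Of 4 partners of CD2, the actin-linking adaptor gene Cd2ap was lower (24.7 ± 4.98 against 61.9 ± 10.0, SD, n = 3; adjusted p = 0.010 from limma) and none was higher. Cd48, the ligand of mouse CD2, was at 91.6, 60.4 and 106.6 in SS-TAMs and at 73.5, 83.6 and 78.8 in GCMs. Its groups overlapped around a log2 fold change of 0.09, and Pstpip1 was at 0.10. The receptor gene and its ligand gene thus gave separate readings, a 28.8-fold difference for one and no call for the other.

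**Figure D3:**
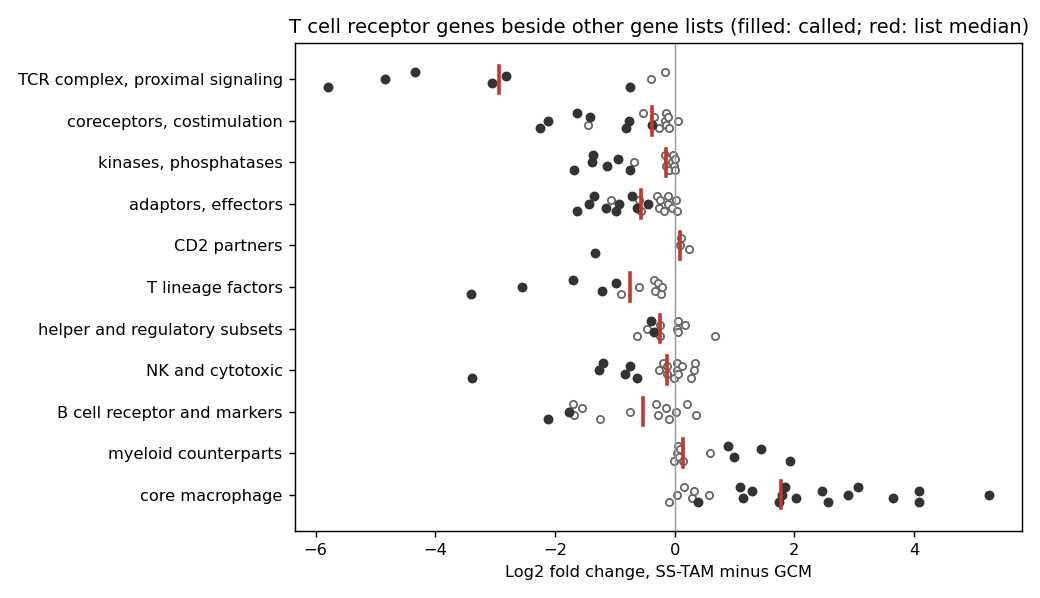
Difference in log2 intensity (SS-TAM minus GCM) for each measured gene (point, filled where called) in 11 lists, with the list median in red. The T cell receptor complex and proximal signaling genes have a median of -2.94, the coreceptor, kinase, adaptor and CD2 partner lists between -0.56 and 0.10, and the core macrophage list 1.77; with arrays centred on the core macrophage markers nearly all genes move below 0.

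Genes related to the set that myeloid or B cells use were higher or were not called. Of 11 measured, 4 were higher and none lower, with a median of 0.13. The count was 2 without any one GCM array or with unmoderated variances. Fcer1g and Ly9 kept their calls without any 1 array, Tyrobp in 3 and Cd84 in 1 of 6 such fits. Fcer1g, which serves Fc receptors as CD247 serves the T cell receptor, was at 87.6, 78.5 and 113.2 in SS-TAMs and at 25.1, 25.1 and 22.8 in GCMs, and the groups did not overlap (log2 fold change 1.92, adjusted p = 0.0017 from limma). Tyrobp, the adaptor DAP12, had a log2 fold change of 1.00, and the CD2 family genes Ly9 and Cd84 of 1.44 and 0.89. With arrays centred on the core macrophage markers Tyrobp, Ly9 and Cd84 turned to -0.85, -0.41 and -0.95 and Fcer1g was at 0.07, while the median of all genes moved to -1.81. Relative to that median they were 0.95, 1.39, 0.85 and 1.88 higher with or without this scaling. That sameness is no check, because the scaling moves every gene by the same amount. Skap2, the relative of Skap1 in myeloid cells, was at 21.6 ± 2.15 against 20.9 ± 0.81 (SD, n = 3; log2 fold change 0.04), and Slamf7 at 0.07. Syk, the relative of Zap70, was at 9.2, 10.8 and 14.8 in SS-TAMs and at 10.0, 6.9 and 6.2 in GCMs, close to the array median and not called (0.59, adjusted p = 0.20 from limma).

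**Figure D4:**
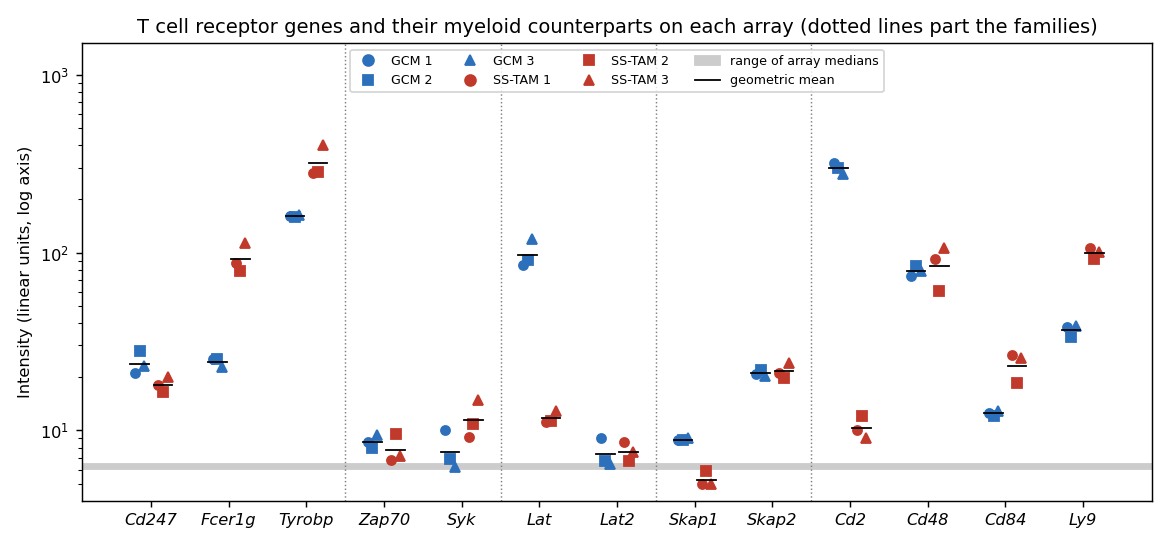
Intensity in linear units (log axis) on each array of 5 genes of the set and 8 related genes, with GCM in blue and SS-TAM in red; each bar marks a group's geometric mean and the grey band the range of the array medians. Lat, Cd2 and Skap1 lie lower in SS-TAMs, and Cd247 lies slightly lower without being called. Fcer1g, Tyrobp, Cd84 and Ly9 lie higher, and Zap70, Syk, Skap2, Lat2 and Cd48 overlap between the groups. Centring on core macrophage markers moves the median of all genes to -1.81 and turns the sign of Tyrobp, Cd84 and Ly9. It moves every gene alike, so their distances above that median (0.95, 0.85 and 1.39) cannot change.

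Markers of whole cell types are given beside the set. Of 12 T lineage genes, 5 were lower and none higher. The chromatin organizer gene Satb1 was at 6.27 ± 1.47 against 65.8 ± 15.2, and S1pr1, the receptor for exit from lymphoid tissue, at 23.9 ± 8.60 against 137 ± 26.4 (SD, n = 3). Ccr7, Ets1 and Tox followed with log2 fold changes of -1.70, -1.21 and -0.98, while Thy1, which stromal cells also carry, was at -0.23 and the cytokine receptor gene Il7r at -0.90, neither called. The count was 3 without GCM replicate 3 and 2 with unmoderated variances. Of 11 genes of helper and regulatory T cells, Cd40lg and Il2ra were lower by 0.40 and 0.35 on the log2 scale (adjusted p = 0.045 and 0.026 from limma) and none was higher. Cd40lg kept its call in 0 and Il2ra in 1 of 6 fits without 1 array, and Maf and Bcl6 were not called (0.67 and -0.25).

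Of 18 NK and cytotoxic genes, 6 were lower and none higher: Ccl5, Nkg7, Cst7, Il2rb, Txk and Eomes, with log2 fold changes of -3.39, -1.27, -1.19, -0.82, -0.74 and -0.63. Without GCM replicate 2 or 3, or with unmoderated variances, 3 were lower, 4 were without GCM replicate 1 or SS-TAM replicate 3, and without SS-TAM replicate 1 one gene of the list was called higher. Ccl5, Cst7 and Il2rb kept their calls without any 1 array, Nkg7 in 3 and Txk and Eomes in 2 of 6 such fits. The summed intensity of the list was 146.4 to 171.2 in SS-TAMs and 425.7 to 480.5 in GCMs, and 118.3 to 143.5 and 168.2 to 177.9 without Ccl5. The NK receptor genes Ncr1 and Klrb1c were between 3.4 and 5.0 on all 6 arrays, below every array median. Such values may be background and do not show whether NK cells were present. Xcl1 and Gzma were not called. Of 14 B cell genes, Cd79a and Ms4a1 were lower (-2.12 and -1.77) and none was higher, and Cd79b and Cd72 were not called (-1.55 and 0.21). This count was 0 without SS-TAM replicate 2 or with unmoderated variances, 4 without GCM replicate 1, and 1 with array weights or with any of the remaining 4 arrays left out. In the core macrophage list 16 of 22 genes were higher and none was lower (8 and 10 when arrays were centred on this list itself), with summed intensities of 3421.0 to 4703.1 in SS-TAMs and 1212.1 to 1391.7 in GCMs. As a sum, transcripts of the core macrophage list were thus measured in both groups, and T cell transcripts beside them in GCMs. A sum can be carried by few bright genes, and levels of the single macrophage markers are not given here. The part of these other cell types in the differences was not tested.

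The 10 genes outside the set whose profiles over the 6 arrays were nearest to its mean profile were Rpsa, Ctse, Rpl10a, Rplp0, Rps20, Smc6, Rpl8, Lsm5, Rpl23a and Rpl26. Each profile was centred on its own mean, and the root mean square difference from the mean of the 8 genes was 0.093 (Rpsa) to 0.22 (Rpl26) on the log2 scale, against a median of 1.41 over all genes. Of the 10, 7 encode cytosolic ribosomal proteins, and all 10 had log2 fold changes between -3.05 and -2.48. Within the set Lat was nearest to the mean profile (0.17) and Cd3g farthest (1.51). The likeness is a description over 6 arrays that share the group difference.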

How the data were processed

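Macrophages were captured by laser from 3 BL2 xenografts (SS-TAM) and from germinal centers of 3 immunized mice (GCM), and each mouse gave 1 array. The values that the authors deposited are linear intensity values with 1 decimal, between 2.4 and 2543.6, over 28944 probe sets. RMA and limma are named in the submitters' processing notes, while their settings and versions were not stated there. Log2 was taken of the deposited intensity without further scaling. Rounding limits the steps of low values, and precision is limited by the number of arrays.

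Names of probe sets came from the annotation of the platform (21789 name 1 gene, 1621 several and 5534 are unnamed here), symbols were checked by gene ID against RefSeq GRCm38.p6 (21698 matched), and the brightest of several probe sets stood for a gene. Groups were taken from the sample titles. The comparison used lmFit and eBayes of limma 3.58.1 (R 4.3.3, two-sided), with Benjamini-Hochberg adjustment over 19938 genes at 0.05; the procedure was tested on simulated data. With 3 arrays a group, the smallest p of an exact permutation test is 0.1. Means ± SD are of linear intensities.

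The genes of the set and all lists were chosen with earlier results of these data known. The text names all genes of the set, up to 8 called genes of each other list with its 2 brightest genes that were not called, and the 10 genes of nearest profile; of the core macrophage list only the count is given, and Nck1, Ptcra, Syk, Lat2, Ncr1 and Klrb1c were added after their values were seen. Alternatives were other scalings, array weights, other variance models, 16 added before log2, dim genes left out, means of probe sets, the replicate number as a block, leaving out single arrays and a 2-fold criterion. Promoter windows and motif counts are from RefSeq GRCm38.p6.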

Additional observations from a re-analysis of the deposited data

How the results depend on the processing

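Of the 6 genes of the set called lower, 5 (Cd3g, Cd3d, Cd2, Lat and Skap1) were called in all 16 fits other than the main one, and Cd3e in all but those without GCM replicate 1, 2 or 3 and that with unmoderated variances (adjusted p = 0.079). No log2 fold change of the set changed sign. With quantile normalization 6 genes of the set were lower, and Cd3g was at -5.55. The count of genes of the set called lower was 5 to 6 with 1 array left out (5 without any one GCM array), and 5 with unmoderated variances or at 2-fold (Skap1 misses it). Centred on the core macrophage markers, 8 were lower, as nearly every gene was: 19769 genes were lower and 71 higher, and 59 of the other pathway genes were lower. There Cd247 and Zap70 lay at -2.24 and -2.01, or 0.43 and 0.20 below the median of all genes. These distances cannot change under a scaling that moves every gene by the same amount. Over all genes, 1028 were higher and 946 lower. With unmoderated variances 309 were higher and 267 lower, and at 2-fold 279 and 470. Leaving out 1 array gave 271 to 1159 higher and 399 to 796 lower, the fewest without GCM replicate 2. Median centring gave 722 higher and 1195 lower. Of the other pathway genes, 23 were lower; 15 were with array weights, 6 with unmoderated variances, 13 at 2-fold and 12 to 17 with 1 array left out (12 without SS-TAM replicate 3 or GCM replicate 3, 13 without GCM replicate 2), and 0 to 1 were higher.

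Arrays with the same replicate number had correlations of deviations of 0.09, 0.09 and 0.02. Those with different numbers had -0.08 to 0.01. Such small values do not settle whether the numbers pair the arrays. With the replicate number as a block, 6 genes of the set were lower, and 611 genes in all were higher and 708 lower.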
